A study of Mus musculus with 119 samples.

Results

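The male ventral tegmental area (VTA) was represented by 11 of the 119 libraries of a study of adolescent THC exposure in mice, 6 from THC-treated males (FTL_374 to FTL_379) and 5 from vehicle-treated males (FTL_369 to FTL_373), chosen by the region, sex and treatment in their sample titles. The study sequenced polyadenylated RNA from punches of 5 brain regions of female and male mice, with the aim of finding genes whose expression differed after THC exposure in adolescence. Mice received vehicle or 10 mg/kg THC by daily intraperitoneal injection from postnatal day 28 to 48, 21 injections in all, and were tested for behavior from day 63. No other agent or allele separated the groups. The labels name the strain C57BL/6J and an age of 11 weeks, whereas the paper names C57BL/6NCrl mice. According to the study's methods, each library held the VTA of a single mouse. The labels do not name the mice, so p-values measure the spread between these libraries. The methods also state that RNA had an integrity number above 7.5, and that a male vehicle VTA sample of low integrity was left out.

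The VTA holds the dopamine neurons of the reward pathway, mixed with GABA and glutamate neurons and bordered by serotonin neurons of the raphe, by the interpeduncular nucleus, by the mammillary region and by the red nucleus. THC acts on the cannabinoid receptor CB1, which sits on the terminals of GABA and glutamate neurons that contact dopamine neurons and reduces transmitter release there. Dopamine neurons synthesize endocannabinoids, which travel back to those terminals. Many VTA neurons also release neuropeptides, and these peptides and their receptors set how the dopamine neurons fire.

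Total expected counts, the measure of depth, ranged from 3090998 to 60022122 in the vehicle libraries and from 18632073 to 77042133 in the THC libraries. The log2 totals differed by 0.596 between groups (THC minus vehicle, two-sided exact permutation test over 462 assignments, p = 0.548, smallest possible p = 0.00216). Vehicle library FTL_371 was the shallowest. It also stood apart on the first principal component of the 500 most variable genes, which held 48.9% of the variance, with a score of 70.4 against −16.7 to 7.03 in the other 10 libraries. The share of variance that went with treatment (R2) was 0.0573 on that component and 0.140 on the second (exact permutation p = 0.697 and 0.249, adjusted over both 0.697 and 0.498). FTL_371 was kept, and counts of listed genes that changed without it are given both ways. The study's methods say that 119 libraries were sequenced and that a male VTA sample was then removed as an outlier, without naming it. The series holds 119 libraries, so by these counts the removed sample is among these 11. Which of them it is was not stated.

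The region label was borne out by the level of dopamine neuron genes in every library. Slc6a3, the dopamine transporter, had 588 to 1750 CPM (counts scaled to a common library size, after TMM normalization, which assumes that most genes do not differ) in the vehicle libraries and 844 to 1551 CPM in the THC libraries. Th, the enzyme that makes the dopamine precursor, had 306.6 to 863 CPM with vehicle and 505 to 848 CPM with THC.

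Of 55291 genes in the table, 17103 passed the edgeR filter on low counts and were tested. No gene passed as a differentially expressed gene, defined by an FDR under 0.05 and a log2 fold change of 0.4 or more in size (0%), and the smallest adjusted p of the edgeR quasi-likelihood test was 0.819. Without adjustment 1012 genes had a p under 0.05 (5.92%), of which 589 had higher levels with THC (3.44% of genes tested) and 423 lower levels (2.47%). Of these, 207 also differed by 0.4 or more on the log2 scale, 144 higher and 63 lower. Every THC library was above every vehicle library for 54 genes (0.316%) and below every vehicle library for 36 genes (0.21%). The median absolute log2 fold change was 0.083 and its 95th percentile 0.416. DESeq2, run as the alternative test, called 1 of 30619 genes (0.00327%), the somatostatin gene Sst, and gave 1136 genes a p under 0.05.

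**Figure D1:**
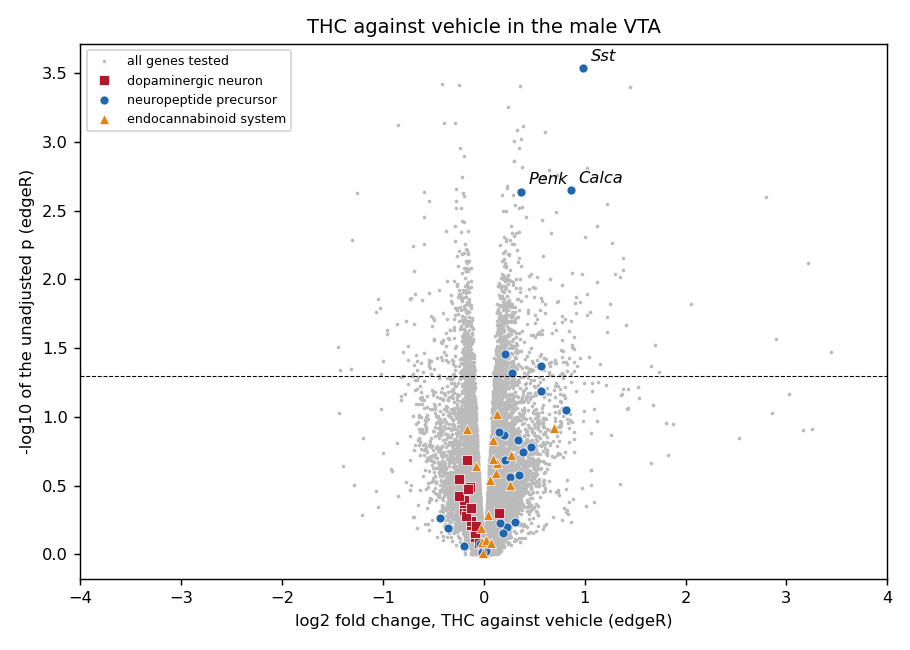
Each point is 1 of the 17103 genes tested in the male VTA, with the edgeR log2 fold change of THC against vehicle on the x axis and −log10 of the unadjusted p on the y axis, and 3 gene lists in color. The dashed line marks an unadjusted p of 0.05. Neuropeptide precursor genes lie mostly right of 0, with Sst the highest point of the plot, and dopaminergic neuron genes lie close to 0 on the left.

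Sst encodes somatostatin, a peptide that inhibits release of hormones and transmitters and that marks a class of GABA neurons in the VTA. The gene lies at chr16:23889573-23891342 (GRCm38.p6). Sst levels were 22.3, 21.4, 14.7, 19.0 and 18.9 CPM in vehicle libraries FTL_369 to FTL_373. In the THC libraries they were 30.6, 26.8, 54.4, 37.4, 33.6 and 51.6 CPM from FTL_374 to FTL_379. All 6 THC libraries were above the highest vehicle library, and FTL_376 and FTL_379 were the highest. Mean levels were 39.1 ± 11.4 CPM in the THC group (SD, n = 6) against 19.3 ± 2.96 CPM in the vehicle group (SD, n = 5), a 1.98-fold difference (log2 fold change 0.99, SE 0.19). The difference did not pass in edgeR (unadjusted p = 0.000292, adjusted p = 0.819) and passed in DESeq2 (log2 fold change 1.00, SE 0.17, adjusted p = 0.00017). Over all libraries left out in turn the edgeR log2 fold change stayed between 0.87 and 1.08, with adjusted p from 0.356 to 1.

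Promoters are shown for 3 of the neuropeptide genes with an unadjusted p under 0.05, Sst, Calca and Vip, because peptide genes of this kind are known targets of cyclic AMP signalling through the element TGACGTCA or its shorter form TGACG. Each sequence is the 250 bases before a RefSeq transcription start on GRCm38.p6, read 5′ to 3′ on the gene's strand, with a match to the element in capitals. The windows are chr16:23890845-23891094 (minus strand) for Sst, chr7:114636358-114636607 (minus strand) for Calca and chr10:5638968-5639217 (plus strand) for Vip.
Sst: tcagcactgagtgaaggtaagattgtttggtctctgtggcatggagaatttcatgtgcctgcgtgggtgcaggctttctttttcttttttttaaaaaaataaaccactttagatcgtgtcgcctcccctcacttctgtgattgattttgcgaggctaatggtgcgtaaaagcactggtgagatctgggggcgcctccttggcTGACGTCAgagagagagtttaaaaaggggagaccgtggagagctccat
Calca: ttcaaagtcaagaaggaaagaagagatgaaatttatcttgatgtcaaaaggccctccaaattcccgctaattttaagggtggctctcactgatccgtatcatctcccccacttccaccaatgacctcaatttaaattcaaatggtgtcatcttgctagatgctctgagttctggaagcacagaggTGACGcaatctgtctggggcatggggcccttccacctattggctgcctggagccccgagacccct
Vip: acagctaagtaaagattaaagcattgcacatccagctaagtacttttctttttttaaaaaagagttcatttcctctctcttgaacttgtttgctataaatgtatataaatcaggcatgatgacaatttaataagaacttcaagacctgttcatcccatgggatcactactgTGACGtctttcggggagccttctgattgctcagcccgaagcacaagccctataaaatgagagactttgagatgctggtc
In Sst the full element lay 48 to 41 bases before the start, in Calca the short form lay 65 to 61 bases before it and in Vip 79 to 75 bases before it. Both strands were searched, and a full element contains the short form on each strand. Of 32851 RefSeq promoters, 508 held the full element in these 250 bases (1.55%) and 5836 held the short form (17.8%). Among the 31 listed neuropeptide genes, 23 had a promoter in the table, of which 4 held the full element (Cartpt, Scg2, Sst and Ucn) and 13 the short form. A gene was counted once here however many promoters it had, whereas each promoter counted among the 32851. Of the other listed genes higher at this p, Cbln4 held the short form and is not shown, and Penk and Pnoc had no promoter listed. A match of letters is a description of the window and says nothing about binding in these mice.

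Neuropeptide precursor genes as a group had higher levels in the THC libraries more often than lower ones. Of 31 listed genes, 26 were tested, and 21 had a log2 fold change above 0 and 5 below 0, with a median of 0.24 against −0.00098 over all genes tested. Of these 26 genes, 6 were higher at an unadjusted p under 0.05 and 0 were lower, beside 3.44% and 2.47% of all genes. The 6 were Sst, Calca, Penk, Cbln4, Vip and Pnoc. Cbln4 encodes a secreted organizer of synapses, not a classical neuropeptide, and is counted with the list here and below. No gene of the list passed the adjusted threshold in edgeR. The list was chosen with earlier results of these data known, so its counts are a description and not a test. The other 5 listed genes, Hcrt, Avp, Oxt, Ucn and Nmu, were too low to be tested.

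Calca, which encodes calcitonin gene-related peptide, had 1.82, 2.48, 1.59, 1.78 and 2.33 CPM in the vehicle libraries. With THC its lowest level was 2.50, its median 3.48 and its highest 6.43 CPM. The groups did not overlap, although the highest vehicle and the lowest THC library were close, and FTL_379 was the highest. The log2 fold change was 0.87 (SE 0.23, edgeR unadjusted p = 0.00224, adjusted p = 0.819).

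Penk, the precursor of the enkephalin opioid peptides, had 48.4, 41.6, 30.6, 36.0 and 39.1 CPM with vehicle. Its levels with THC ran from 40.9 through a median of 52.9 to 55.2 CPM. FTL_376 fell within the vehicle range and the other 5 THC libraries lay above it. Penk differed by 0.37 on the log2 scale (SE 0.10, edgeR unadjusted p = 0.0023, adjusted p = 0.819). Vip, for vasoactive intestinal peptide, was at 0.637 to 1.32 CPM with vehicle and 1.03 to 2.07 CPM with THC (log2 fold change 0.56, SE 0.25). Pnoc, the nociceptin precursor, was at 8.60 to 13.4 and 10.4 to 15.1 CPM (log2 fold change 0.28, SE 0.13). For Cbln4, a secreted organizer of synapses, the values were 27.2 to 34.0 and 28.4 to 43.2 CPM (log2 fold change 0.21, SE 0.09). The groups overlapped for these 3 genes.

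The peptide counts did not rest on FTL_371. Without that library 9 neuropeptide genes were higher at an unadjusted p under 0.05 and 0 lower, beside 4.41% of all 17587 genes tested there that were higher and 4.06% that were lower, and the list's median was 0.35 with 24 of 26 genes above 0. The added genes were Nts (neurotensin, 0.62), Tac1 (substance P, 0.73), Pdyn (dynorphin, 0.43), Adcyap1 (PACAP, 0.78) and Scg2 (secretogranin II, 0.24), given as log2 fold changes without FTL_371, while Vip and Pnoc left the count. Among the THC libraries none exceeded the 170 CPM of Adcyap1 in FTL_371, a library that also held the most mammillary marker RNA. In bulk tissue, more RNA per cell and more cells of a type in the punch cannot be told apart for any of these peptides.

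Among 8 opioid receptor and peptide genes, all tested, 7 had a log2 fold change above 0 and 1 below 0, with a median of 0.26. At an unadjusted p under 0.05, 2 were higher, Penk and Pnoc, and 0 were lower, beside 3.44% and 2.47% of all genes. Both are also on the neuropeptide precursor list. Oprm1, the mu opioid receptor, had 2.82 to 3.88 CPM with vehicle and 3.57 to 4.79 CPM with THC (log2 fold change 0.24, SE 0.13, edgeR adjusted p = 0.819). Of 22 neuropeptide receptor genes 1 was higher, Hcrtr2 for orexin (log2 fold change 0.24, SE 0.11), 0 were lower, and 11 lay on each side of 0. The median of the receptors was 0.01. Without FTL_371 4 were higher, Hcrtr2 (0.26), Galr1 (0.88), Oxtr (0.53) and Avpr1a (0.56), and 2 lower, Sstr1 (−0.26) and Mc4r (−0.54), beside 4.41% and 4.06% of all genes.

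**Figure D2:**
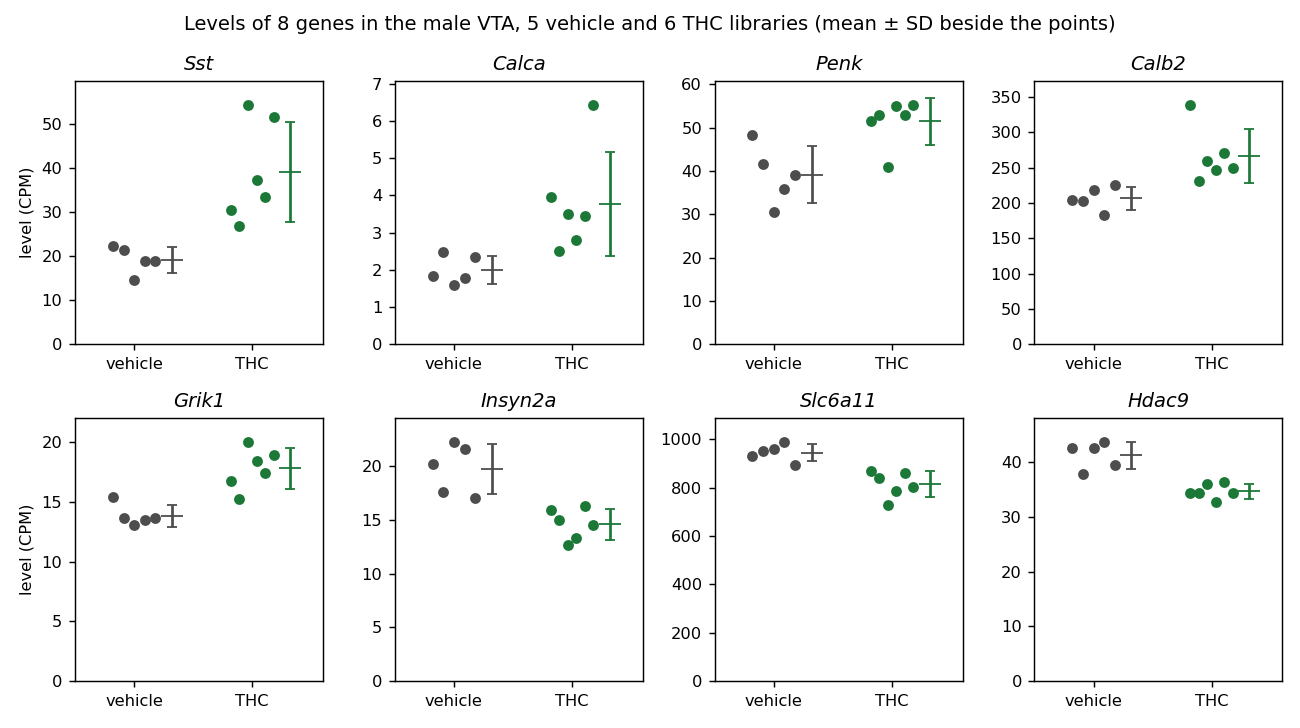
Levels in CPM (y axis, from 0) of 8 genes, with 1 point per library for the 5 vehicle and 6 THC libraries and the mean ± SD beside the points. Sst, Calca, Calb2, Insyn2a, Slc6a11 and Hdac9 show groups that do not overlap, and Penk and Grik1 show 1 THC library within the vehicle range.

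Of the glutamate receptor genes, Grik1 was among the genes of smallest p. Grik1, the GluK1 subunit of kainate receptors (chr16:87895901-88290863), had 15.5, 13.6, 13.1, 13.5 and 13.6 CPM with vehicle and 15.3, a median of 17.95, and 20.1 CPM at most with THC. Only THC library FTL_375 lay below the highest vehicle library, FTL_369, which itself stood above the other 4. The log2 fold change of Grik1 was 0.36 (SE 0.08, edgeR unadjusted p = 0.000392, adjusted p = 0.819). Of 19 AMPA, NMDA, kainate and metabotropic receptor genes, 2 were higher (Grik1 and Grm8) and 1 lower at an unadjusted p under 0.05. Beside this stood 3.44% and 2.47% of all genes, and the median log2 fold change of the 19 genes was −0.01. Without FTL_371 6 of these genes were higher and 3 lower, beside 4.41% and 4.06% of all genes, among them Grik2 (0.22), a second kainate receptor subunit, and the NMDA receptor subunits Grin2a (−0.38) and Grin2c (−0.25).

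The other genes of smallest p with higher levels in THC libraries were Col6a4, Pam16, Tmem158, Sorcs1, Ecel1, Calb2, Gm1673 and Resp18. Calb2 encodes the calcium buffer calretinin, found in a subset of VTA dopamine neurons. It had 204, 203, 219, 183 and 225 CPM with vehicle, and 232 CPM at the lowest, 254 CPM at the median and 338.8 CPM at the highest with THC. The groups did not overlap, and FTL_374 stood above the other THC libraries (log2 fold change 0.37, SE 0.09). Ecel1, a membrane peptidase of neurons, had 12.5 to 17.2 CPM with vehicle and 16.2 to 27.0 CPM with THC (log2 fold change 0.61, SE 0.14), with an overlap of the groups. Resp18, a protein of the secretory pathway of peptide-releasing cells, had 137 to 179 and 169 to 231 CPM (log2 fold change 0.34, SE 0.08), again with an overlap.

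Tmem158, a membrane protein induced by Ras signalling, had 13.7 to 17.7 CPM with vehicle and 18.3 to 24.1 CPM with THC, without overlap (log2 fold change 0.39, SE 0.09). Pam16, part of the mitochondrial import motor, likewise did not overlap, at 18.2 to 21.6 and 23.6 to 24.6 CPM (log2 fold change 0.24, SE 0.05). Sorcs1, a receptor that sorts neuronal membrane proteins, was at 29.0 to 30.3 and 29.8 to 41.8 CPM (log2 fold change 0.33, SE 0.08). Col6a4, a collagen VI chain and one of the 15 meningeal and fibroblast genes, was low, at 0.442 to 1.59 CPM with vehicle and 1.13 to 2.56 CPM with THC (log2 fold change 1.45, SE 0.32). For Gm1673 the values were 21.5 to 26.3 and 25.8 to 32.6 CPM (log2 fold change 0.30, SE 0.07). All 10 genes, Sst and Grik1 included, had an edgeR adjusted p of 0.819.

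Genes with lower levels in THC libraries were led by Insyn2a, a protein of the inhibitory postsynapse (chr7:134881908-134938430). Its levels were 20.2, 17.6, 22.3, 21.6 and 17.1 CPM with vehicle. With THC they were 12.6 CPM at the lowest, 14.7 CPM at the median and 16.3 CPM at the highest, so that the groups did not overlap. The log2 fold change was −0.41 (SE 0.09, edgeR unadjusted p = 0.000382, adjusted p = 0.819). Hdac9, a class IIa histone deacetylase, had 42.7, 37.9, 42.7, 43.8 and 39.5 CPM with vehicle and 32.8 to 36.5 CPM with THC (median 34.4), again without overlap (log2 fold change −0.24, SE 0.05).

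Another 3 genes of the 10 with lower levels are known in astrocytes, which clear transmitters and buffer pH around neurons. Slc6a11, the GABA transporter GAT-3, had 895 to 990 CPM with vehicle and 728 to 869 CPM with THC (log2 fold change −0.22, SE 0.06). Slc4a4, a sodium bicarbonate cotransporter, had up to 397 CPM with vehicle and 313.9 to 340 CPM with THC (log2 fold change −0.20, SE 0.05). Pygm, a glycogen phosphorylase, had 87.3 to 105 and 73.0 to 86.6 CPM (log2 fold change −0.24, SE 0.06). The groups did not overlap for any of these 3. Of the 15 astrocyte genes on the list, 0 were higher and 3 lower at an unadjusted p under 0.05 (Slc1a2, Sox9 and Fgfr3), beside 3.44% and 2.47% of all genes, 11 had a log2 fold change below 0, and the median was −0.07. Slc1a2, the main glutamate transporter of astrocytes, had 1143 to 1327 CPM with vehicle and 1078 to 1220 CPM with THC (log2 fold change −0.17, SE 0.06). Without FTL_371 0 astrocyte genes were higher and 1, Slc1a2, was lower at this p, beside 4.41% and 4.06% of all genes.

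Lgi2, a secreted synaptic protein, had 210 CPM or more with vehicle and 175 to 213 CPM with THC (log2 fold change −0.29, SE 0.07). Mlph, which links organelles to a myosin motor, was at 1.601 to 2.68 and 0.800 to 1.59 CPM without overlap (log2 fold change −0.85, SE 0.20). Xylt1, which starts the sugar chains of proteoglycans, was at 51.8 to 73.4 and 47.4 to 51.9 CPM (log2 fold change −0.27, SE 0.07). Gas2l3, a linker of the cytoskeleton, was at 2.85 to 4.19 and 1.89 to 2.95 CPM (log2 fold change −0.59, SE 0.16). The perineuronal net is a coat of proteoglycans around neurons. Of 9 of its genes, 2 were lower at an unadjusted p under 0.05 and 0 higher, beside 2.47% and 3.44% of all genes. These were Ncan (log2 fold change −0.21, SE 0.09) and Bcan (−0.13, SE 0.06). Without FTL_371 this count was 0 in both directions, with −0.14 for Ncan and −0.10 for Bcan.

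Dopaminergic neuron genes had slightly lower levels in the THC libraries, within the spread between libraries. All 20 listed genes were tested, 19 had a log2 fold change below 0 and 1 above 0, the median was −0.13, and 0 passed an unadjusted p of 0.05 in either direction. Slc6a3 had 1551, 1332, 588, 1750 and 1692 CPM with vehicle, and 844 CPM at the lowest, 1241 CPM at the median and 1551 CPM at the highest with THC. FTL_371 was the lowest of all 11 libraries and the groups overlapped (log2 fold change −0.20, SE 0.26, edgeR adjusted p = 0.935). Th had 796, 656, 306.6, 863 and 863 CPM with vehicle and 505 to 848 CPM with THC (median 636). For Th the log2 fold change was −0.08 (SE 0.26, edgeR adjusted p = 1), and it was above 0 without FTL_372 and without FTL_373. Slc18a2, which loads dopamine into vesicles, and Ddc, the second enzyme of dopamine synthesis, differed by −0.17 (SE 0.23) and −0.10 (SE 0.24). Drd2, the dopamine autoreceptor, and Chrna6, a nicotinic receptor subunit of dopamine neurons, differed by −0.20 (SE 0.23) and −0.05 (SE 0.21).

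Without FTL_371 the dopaminergic median was −0.25, and 4 genes were lower at an unadjusted p under 0.05, beside 4.06% of all genes. These were Slc6a3 (log2 fold change −0.39, SE 0.16, edgeR unadjusted p = 0.0302, adjusted p = 0.572), Slc18a2 (−0.33), Drd2 (−0.35) and Ddc (−0.28). The transcription factor Lmx1a was higher (0.33, edgeR unadjusted p = 0.0336, adjusted p = 0.576). FTL_371 was the vehicle library lowest in Slc6a3, Slc18a2, Drd2 and Ddc, so leaving it out moves their log2 fold changes down. With each library left out in turn, Slc6a3 ranged from −0.389 to −0.1 and Ddc from −0.281 to 0.00641, both lowest without FTL_371. The summed level of the 20 genes was 3032 CPM in FTL_371, 5925 to 7620 CPM in the other vehicle libraries and 4228 to 7036 CPM in the THC libraries, where FTL_376 and FTL_377 were the lowest. Genes listed as markers of dopamine neuron subtypes lay mostly above 0. Of 14, all tested, 11 had a log2 fold change above 0, and the median was 0.21. Among the 14, Cck, Vip, Nts, Adcyap1 and Grp are also on the neuropeptide precursor list. Which cells held the RNA of the 14 genes was not tested. At an unadjusted p under 0.05, 2 of the 14 were higher (Calb2 and Vip) and 0 lower, beside 3.44% and 2.47% of all genes. Without FTL_371 5 were higher, Calb2 (0.39), Nts (0.62), Neurod6 (0.90), Adcyap1 (0.78) and Slc17a6 (0.28), and 1 lower, Sox6 (log2 fold change −0.18), beside 4.41% and 4.06% of all genes. Slc17a6 was at −0.006 with all libraries.

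**Figure D3:**
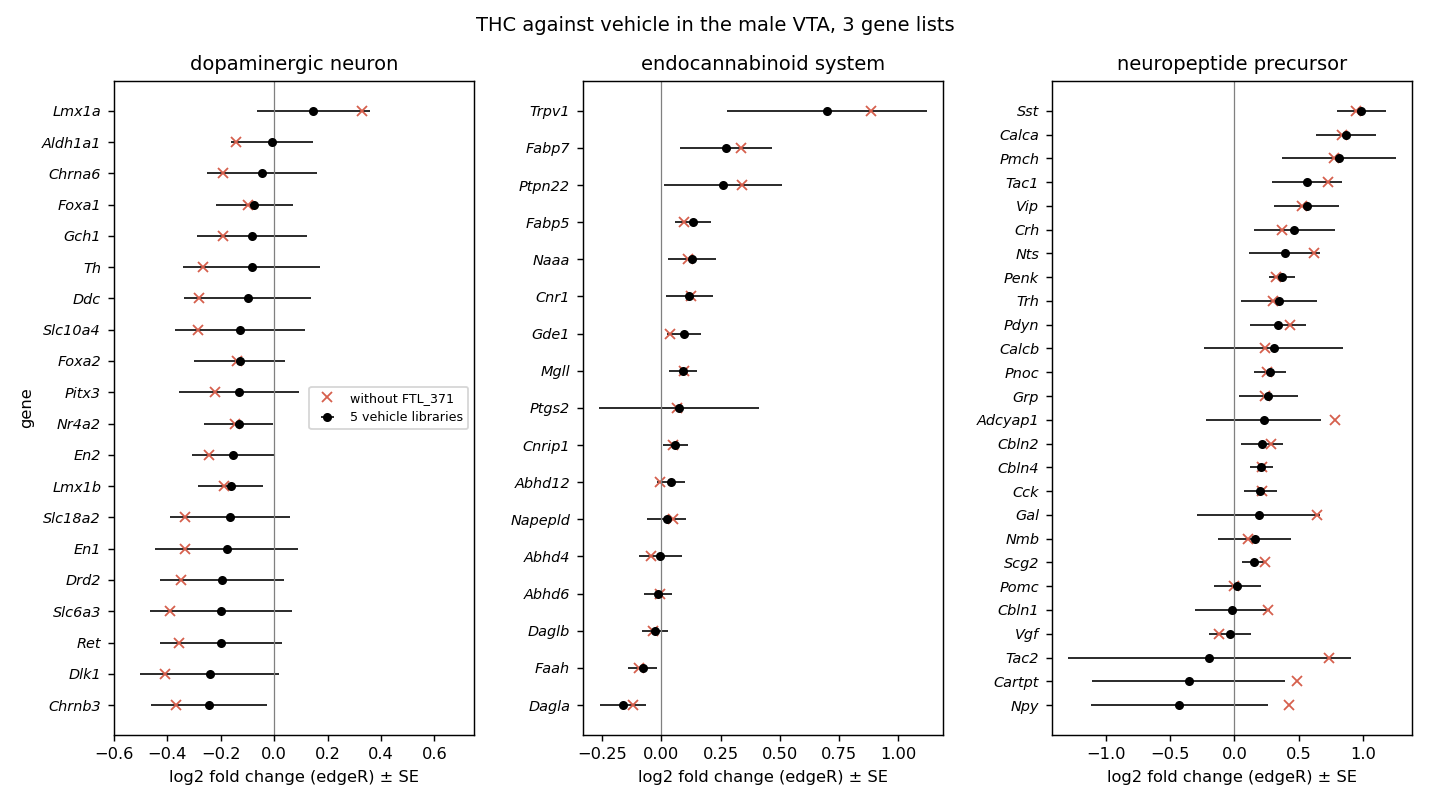
Log2 fold changes of THC against vehicle (x axis, edgeR, bars are SE) for the tested genes (y axis) of 3 lists, with black points from all 11 libraries and crosses from the fit without FTL_371. Dopaminergic genes lie left of 0 except Lmx1a and move further left without FTL_371, endocannabinoid genes lie near 0 except Trpv1 (0.70 with all libraries), and most neuropeptide genes lie right of 0 in both fits.

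GABA neuron genes of the ventral midbrain, Sst and Pnoc aside, all lay below 0 on the log2 scale. Of 12 genes 10 had a log2 fold change below 0, with a median of −0.23. At an unadjusted p under 0.05, 2 were higher (Sst and Pnoc) and 1 lower (Tal1), beside 3.44% and 2.47% of all genes. Tal1, a transcription factor of midbrain GABA neurons, had 24.3, 23.9, 8.92, 28.0 and 19.9 CPM with vehicle and 11.3 to 18.6 CPM with THC (median 16.6). The groups overlapped, since FTL_371 was the lowest of all, and the other vehicle libraries lay above every THC library. The log2 fold change of Tal1 was −0.49 (SE 0.20, unadjusted p = 0.0275, edgeR adjusted p = 0.819), and −0.61 without FTL_371 (SE 0.13, unadjusted p = 0.000497, edgeR adjusted p = 0.493).

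In the fit without FTL_371 6 GABA neuron genes were lower at an unadjusted p under 0.05 and Sst alone was higher, beside 4.06% and 4.41% of all genes. The 6 were Gad1, which makes GABA (log2 fold change −0.51, SE 0.13), Slc32a1, which loads it into vesicles (−0.30, SE 0.10), Tal1, Gata3, Sox14 and Pvalb. With all libraries Gad1 was at 111 to 471 CPM with vehicle, FTL_371 being the lowest, and at 222 to 365.7 CPM with THC (log2 fold change −0.29, SE 0.31). Gad2 differed by −0.07 (SE 0.24) and Slc32a1 by −0.14 (SE 0.20). With each library left out in turn, Gad1 ranged from −0.511 to −0.186 and Slc32a1 from −0.304 to −0.0628, both lowest without FTL_371. Of 16 GABA receptor genes 1 was higher and 1 lower at an unadjusted p under 0.05, beside 3.44% and 2.47% of all genes. The higher gene was Gabrq (log2 fold change 0.27, SE 0.12) and the lower Gabrb2 (−0.28, SE 0.12). Without FTL_371 4 were higher, Gabrq (0.33), Gabra5 (0.32) and Gabre (0.52) among them, and 2 lower, Gabrb2 (−0.36) among them.

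Endocannabinoid genes held no member past an unadjusted p of 0.05. Of 19 listed, 17 were tested, 12 had a log2 fold change above 0 and 5 below 0, the median was 0.07, and 0 passed in either direction. Without FTL_371 1 was higher, Trpv1, an ion channel that anandamide opens (0.88, SE 0.39), beside 4.41% of all genes. Trpv1 was also the largest difference of the list with all libraries, at 0.331 to 1.91 CPM with vehicle and 0.505 to 1.87 CPM with THC (log2 fold change 0.70, SE 0.42). Cnr1, the gene of the CB1 receptor, had 50.3, 50.7, 52.2, 52.2 and 47.3 CPM with vehicle and 42.8 CPM at the lowest, 52.6 CPM at the median and 69.7 CPM at the highest with THC. The vehicle libraries were close together, and THC libraries lay on both sides of them with FTL_379 the highest (log2 fold change 0.12, SE 0.10, edgeR adjusted p = 0.863). Dagla, which makes the endocannabinoid 2-AG, differed by −0.16 (SE 0.10), and Mgll, which breaks it down, by 0.09 (SE 0.06). For Faah and Napepld, which degrade and make anandamide, the log2 fold changes were −0.08 (SE 0.06) and 0.02 (SE 0.08). Daglb differed by −0.03 (SE 0.06). Cnr2 and Gpr55 were too low to be tested.

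Several libraries carried RNA of cells beside the VTA. Tph2, the enzyme of serotonin synthesis in the brain, had 9.55 CPM in vehicle library FTL_369 and 0.318 to 1.62 CPM in the other 4, whereas with THC it had 36.8, 15.6 and 73.2 CPM in FTL_375, FTL_376 and FTL_377 and 0.860 to 1.76 CPM in the other 3. Slc6a4, the serotonin transporter, followed the same libraries, at 7.51 CPM in FTL_369, at 24.5, 11.9 and 51.5 CPM in FTL_375 to FTL_377, and at 0 to 0.401 CPM elsewhere. The summed level of the 8 serotonin neuron and raphe genes was 81.2 to 104 CPM with vehicle and 81.1 to 236 CPM with THC. Of the 6 tested, 2 were higher at an unadjusted p under 0.05, Htr1a and Slc22a3, and 0 lower, beside 3.44% and 2.47% of all genes.

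Htr1a, the serotonin autoreceptor 5-HT1A, had 15.9, 9.70, 16.6, 12.1 and 11.3 CPM with vehicle and 15.1 to 25.0 CPM with THC (median 18.3). FTL_377 was the highest, and 5 of 6 THC libraries lay above every vehicle library, FTL_375 being the exception (log2 fold change 0.60, SE 0.15, edgeR unadjusted p = 0.00179, adjusted p = 0.819). With a serotonin marker score as a covariate, the mean standardized log2 CPM of Tph2, Slc6a4 and Fev and a choice made after seeing the data, its log2 fold change was 0.54 (edgeR unadjusted p = 0.0046, adjusted p = 0.858). Slc17a8, the glutamate transporter VGLUT3 that some serotonin neurons also carry, had 1.22, 0.468, 1.27, 0.504 and 0.458 CPM with vehicle. Its levels with THC were 2.56, 3.03, 5.94, 12.6, 1.11 and 1.83 CPM from FTL_374 to FTL_379, highest in FTL_376 and FTL_377. Only FTL_378 lay within the vehicle range (log2 fold change 2.80, SE 0.71, edgeR unadjusted p = 0.00252, adjusted p = 0.819). With the serotonin score as a covariate the log2 fold change of Slc17a8 was 1.89 (edgeR unadjusted p = 0.000216, adjusted p = 0.851). In that fit 8 neuropeptide genes were higher and 0 lower, beside 3.25% and 2.36% of 17756 genes, and the log2 fold changes were 0.98 for Sst and 1.02 for Calca.

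Other neighbors varied too. Slc17a7, the glutamate transporter of cortex, hippocampus and some brainstem nuclei, was at 41.1 CPM in FTL_371, at 132 CPM in FTL_376 and at 73.9 CPM in FTL_377, and at 0.902 to 3.52 CPM in the other 8 libraries. The nicotinic subunit Chrna2, high in part of the interpeduncular nucleus, had 4.14 CPM in FTL_371 and 0.0836 to 0.61 CPM in the other vehicle libraries. With THC it had 11.6 and 10.2 CPM in FTL_376 and FTL_377 and 0.0934 to 3.40 CPM in the other 4 (log2 fold change 3.45, SE 1.39, edgeR adjusted p = 0.819). Foxb1, of the mammillary body, was at 79.0 CPM in FTL_371, 32.2 CPM in FTL_376 and 4.75 to 13.6 CPM elsewhere. The 14 mammillary and supramammillary genes summed to 316.8 CPM in FTL_371 and to 58.3 to 78.0 CPM in the other vehicle libraries. With THC the sums were 79.5 to 154 CPM, so the groups overlapped with all libraries. Without FTL_371, a library set apart by these same data, the groups did not overlap, though 78.0 and 79.5 CPM are close. How many of all genes separate in that way was not counted. Of the 11 tested, 1 was higher at an unadjusted p under 0.05, Barhl1 (log2 fold change 0.89, SE 0.35), beside 3.44% of all genes. Without FTL_371 4 were higher and 0 lower, beside 4.41% and 4.06% of all genes. Among the 4 were Foxb1 (1.08, against −0.11 with FTL_371), Barhl1 (1.17) and Sim1 (1.04). FTL_371 held the highest sum of these genes, so leaving it out lowers the vehicle level. Nkx2-1, of this list, was also among the genes that set FTL_371 apart on the first principal component. The count and the separation without FTL_371 are therefore no support for a difference. The part of these neighboring cells in the levels of the peptide genes was not tested.

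Meningeal and blood RNA varied widely within both groups. Myoc, high in meningeal cells here, was at 0.318 to 138 CPM with vehicle and 0.579 to 192 CPM with THC. The 15 meningeal and fibroblast genes summed to 363.4 to 1528 CPM with vehicle and 408 to 1582 CPM with THC, highest in FTL_371 and FTL_376. Hbb-bs, a hemoglobin gene, was at 56.5 to 1206 and 71.5 to 1995 CPM, with the same 2 libraries highest. The red nucleus genes Pou4f1 and Nefh were highest in vehicle libraries FTL_369 (9.11 and 622 CPM) and FTL_372 (8.57 and 550 CPM).

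**Figure D4:**
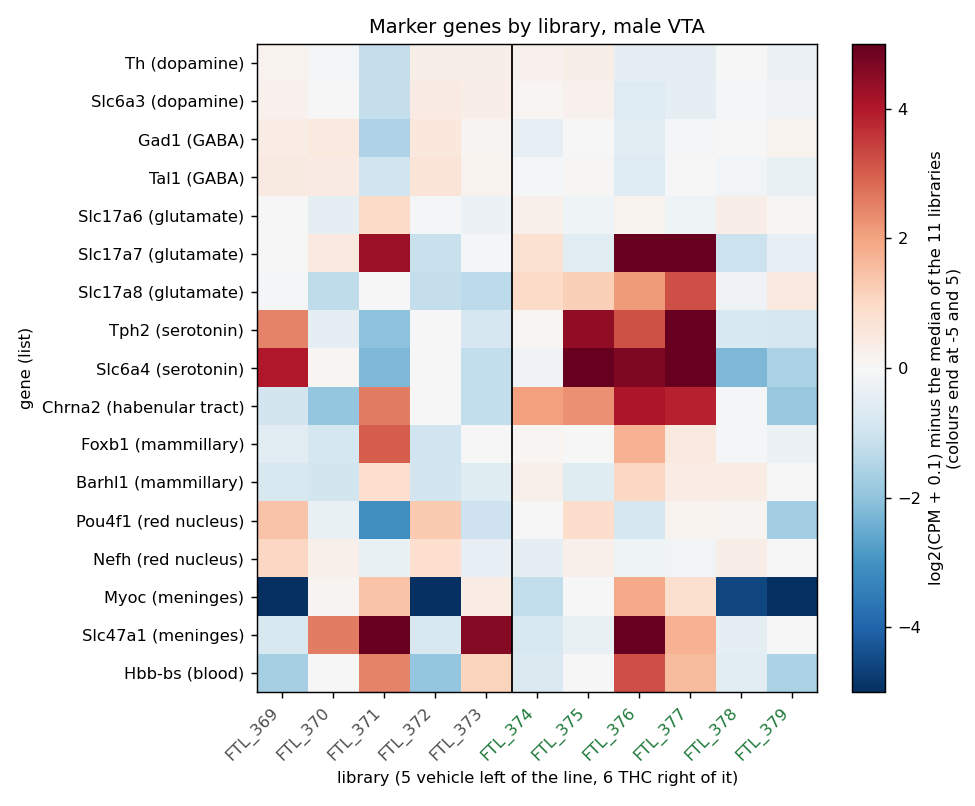
Levels of 17 marker genes (rows, with their list) in the 11 libraries (columns), as log2(CPM + 0.1) minus the median of the 11 libraries, with colors ending at −5 and 5. Serotonin markers are high in FTL_369 and FTL_375 to FTL_377, Slc17a7 in FTL_371, FTL_376 and FTL_377, mammillary and meningeal genes highest in FTL_371 and FTL_376, and dopamine genes are lowest in FTL_371.

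Few oligodendrocyte, microglia, stress and activity genes had an unadjusted p under 0.05, where 3.44% of all genes were higher and 2.47% lower. Of 15 oligodendrocyte genes, which make and maintain myelin, 15 had a log2 fold change above 0 (median 0.10) and 0 passed an unadjusted p of 0.05; without FTL_371 8 were above 0. One of 9 oligodendrocyte precursor genes was lower, the proteoglycan Cspg4 (20.8 ± 1.16 CPM after THC against 25.0 ± 3.03 CPM after vehicle, SD, n = 6 and 5, log2 fold change −0.25, SE 0.08), and without FTL_371 Olig2 was too (−0.18). Among 15 microglia genes 1 was lower, Laptm5 (log2 fold change −0.22, SE 0.10), and 13 had a log2 fold change below 0. Fos, an immediate early gene induced by neuronal activity, had 2.95 to 6.05 CPM with vehicle and 2.56 to 5.97 CPM with THC (log2 fold change 0.26, SE 0.23, edgeR adjusted p = 0.865), and 0 of 19 immediate early genes passed in either direction. Without FTL_371 1 did, Npas4 (0.43). None of the 12 glucocorticoid response, 8 heat shock or 16 interferon and MHC class I genes passed an unadjusted p of 0.05. Of 16 clock genes 1 was lower, Bhlhe40 (log2 fold change −0.16, SE 0.08), and without FTL_371 0 were.

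The female VTA, with 6 THC and 6 vehicle libraries, gave the same contrast in the other sex. It had 0 genes called by edgeR (0%) and 6 by DESeq2, with 15747 tested in edgeR, a smallest edgeR adjusted p of 0.259, and 1421 genes with a p under 0.05 before adjustment (9.02%). The test of the difference itself, the sex × treatment interaction, called 0 of 16881 genes (0%), with a smallest edgeR adjusted p of 0.78, and 1040 had an unadjusted p under 0.05 (6.16%). DESeq2 called 0 in the interaction. Sst in females averaged 26.7 ± 9.68 CPM after THC against 35.3 ± 21.3 CPM after vehicle (SD, n = 6 and 6), a log2 fold change of −0.41 (SE 0.40). The effect of THC on Sst differed from that in males by 1.39 on the log2 scale (SE 0.46, unadjusted p = 0.00703, edgeR adjusted p = 0.78). Calb2, Penk and Calca had log2 fold changes of 0.19 (SE 0.11), 0.11 (SE 0.14) and 0.21 (SE 0.26) in females. Insyn2a was at −0.05 (SE 0.09), with an interaction p of 0.00853 before adjustment and 0.78 after it in edgeR.

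The smallest interaction p belonged to 2310033P09Rik, which had 14.97 to 17.7 CPM with vehicle and 17.98 to 19.5 CPM with THC in males, without overlap. Its log2 fold change was 0.23 (SE 0.06) in males and −0.13 (SE 0.07) in females (interaction unadjusted p = 0.000186, edgeR adjusted p = 0.78). Slc17a8, given above for males, averaged 1.36 ± 0.415 CPM after THC against 1.98 ± 1.09 CPM after vehicle in females (SD, n = 6 and 6, log2 fold change −0.52, SE 0.32). Cckar, a receptor of the peptide cholecystokinin, was at 1.12 in males (SE 0.38) and −0.88 in females (SE 0.31), and Gfra2, a receptor of the growth factor neurturin, at 0.25 (SE 0.08) and −0.25 (SE 0.09), all as log2 fold changes. Both had an edgeR adjusted interaction p of 0.78. Serotonin marker RNA differed between the sexes' libraries, since Tph2 in females ran from 0.338 to 1.02 CPM after THC, against 0.0622 to 12.8 CPM after vehicle. Its part in the interaction was not tested.

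**Figure D5:**
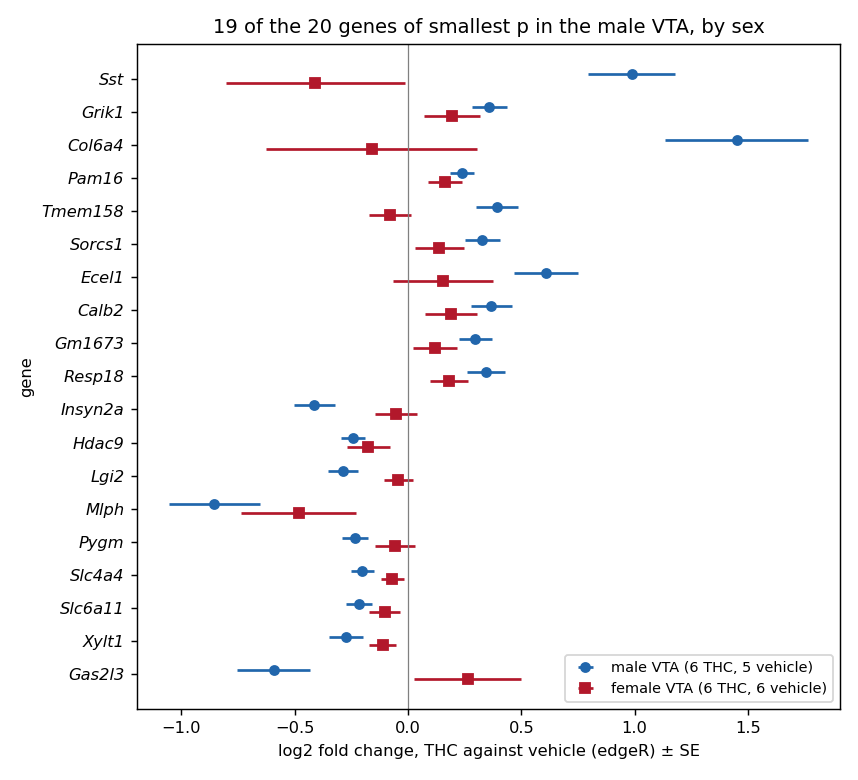
Log2 fold changes of THC against vehicle (x axis, edgeR, bars are SE) for 19 of the 20 genes of smallest p in the male VTA (y axis), in males (circles, 6 THC and 5 vehicle libraries) and females (squares, 6 and 6). The male values chose the genes, so their distance from 0 is no finding. Females lie on the same side of 0 as males for most of them and on the other side for Sst, Col6a4, Tmem158 and Gas2l3.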

How the data were processed

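RNA-seq of the male VTA (11 libraries) was compared between THC and vehicle, with the 12 female VTA libraries beside it. The authors deposited expected counts per gene in 2 tables, of which the one with 71 libraries holds every VTA library and was used and the other was not, estimated with RSEM 1.3.1 after trimming with cutadapt 2.9 and alignment with STAR 2.7.3a to mm10 (tool names per the submitters' processing notes). An expected count splits reads shared between genes, so 5.45% of values were not whole, and these were rounded. Every sample column of the table used was mapped (0 unused). Groups were taken from the sample titles.

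Genes were filtered with filterByExpr, scaled by TMM and tested by edgeR 4.0.16 (limma 3.58.1, R 4.3.3) with a robust quasi-likelihood fit on the male libraries alone, with Benjamini-Hochberg adjustment over all genes tested. Calls needed an adjusted p (FDR) below 0.05 and a difference of 0.4 or more on the log2 scale. The SE of an edgeR log2 fold change is its size divided by the square root of the quasi-likelihood F statistic. DESeq2's SE is the one its own fit reports. DESeq2 1.42.0, the tool of the study, was the alternative because the test was chosen for the unit. sva 3.50.0 gave the surrogate variable. Scripts were tested on simulated data. Fold changes are edgeR's at its default prior count, and CPM values have none. A prior count of 2 was used only for the log2 CPM behind the components and the marker scores.

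Named genes were those called by either tool, the 10 of smallest p in each direction, a set of cannabinoid, dopamine, GABA and glutamate genes, up to 4 genes of smallest p from each gene list, and the genes of smallest interaction p. Other named genes were listed genes at an unadjusted p under 0.05 or markers of neighboring cells, chosen after their values were seen. The members and gene lists were chosen with earlier results of these data known. Sequences and positions are from RefSeq (GRCm38.p6), where 172 of 180 named genes matched. Totals of 3090998 to 77042133 expected counts, with FTL_371 the lowest, and the number of libraries limit the precision. Results of some listed or named genes are not reported here.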

Additional observations from a re-analysis of the deposited data

Results flagged for a closer look

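In 80 group tests over 39 genes, 6 groups held a library whose gap to its nearest neighbor was large for the group's range by Dixon's test, a rule that chance meets in about 1 in 20 groups. Among the THC libraries Calb2 stood apart in FTL_374 at 338.8 CPM, with 231.8 to 271.4 CPM in the other 5. Xylt1 stood apart in FTL_376 at 47.41 CPM, with 50.79 to 51.86 CPM in the others. Among the vehicle libraries Grik1 stood apart in FTL_369 at 15.46 CPM, with 13.05 to 13.63 CPM in the other 4. The other 3 concerned FTL_371, the shallowest library, in which Col6a4 was at 1.592 CPM against 0.4417 to 0.7527 CPM, Slc17a6 at 390.4 CPM against 148.8 to 203.4 CPM and Fos at 6.05 CPM against 2.949 to 3.688 CPM. What set these values apart was not tested.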

How the results depend on the processing

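The count of called genes in the male VTA was 0 in the reported fit and in 18 alternatives, and 1 with DESeq2 (Sst) and with a meningeal score as a covariate (Pax7, log2 fold change 2.64, SE 0.32, edgeR adjusted p = 0.0232), an alternative chosen after seeing the data, as was the serotonin score. The 1012 genes at an unadjusted p under 0.05 became 1805 with no filter and 1605 with 1 surrogate variable, and ranged from 533 (without FTL_372) to 1789 (without FTL_373) with 1 library left out. The interaction had 1985 such genes with no filter and 642 (without FTL_372) to 1529 (without FTL_373) with 1 left out, and 0 called in each case. The female VTA had 6 called genes with DESeq2 and 1 with no filter. The depth difference ranged from −0.13 (without FTL_371) to 0.94, and R2 from 0.0472 to 0.134 on the first component and 0.0458 to 0.267 on the second. Of the log2 fold changes of 39 genes refitted under every alternative, 24 values changed sign, all in genes whose reported value was smaller than its SE. With 1 library left out, Daglb ranged from −0.0463 to 0.00663, Napepld from −0.0331 to 0.0618, Th from −0.268 to 0.00679, Ddc from −0.281 to 0.00641, Slc17a6 from −0.12 to 0.281, Gad2 from −0.25 to 0.0208 and Chrna6 from −0.19 to 0.0643. Thinned to the shallowest library, Napepld was −0.11 and Chrna6 0.025. With limma-voom Th was 0.0265 and Slc17a6 0.135. Slc17a6 was 0.00773 with no filter, 0.216 with the surrogate variable, 0.154 with the serotonin score and 0.0235 with the meningeal score, where Gad2 was 0.0097. Among other named genes, Foxb1 went from −0.11 to 1.08 without FTL_371, and Hbb-bs from 0.44 to −0.40 with the serotonin score. The cause of these changes was not tested. With the serotonin score Slc6a4 went from 3.25 to −0.71, but Slc6a4 is part of that score, so a loss of its difference was built in. No paired analysis was possible because the groups share no library numbers and the labels name no mice.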

Other observations

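Gene lists not described above had few members at an unadjusted p under 0.05, where 3.44% of all genes were higher and 2.47% lower. Mitochondrially encoded genes, which serve the respiratory chain, had 10 of 13 log2 fold changes above 0 with a median of 0.09, and 0 passed an unadjusted p of 0.05 in edgeR. Of 15 endothelial and mural cell genes 1 was lower, Flt1, a receptor of vascular growth factor (log2 fold change −0.18, SE 0.07). Of 9 nicotinic receptor genes 7 lay below 0, with a median of −0.11, and Chrna2 alone was higher at an unadjusted p under 0.05. Of 8 hippocampus and cortex genes 2 were higher, Neurod1, a transcription factor of excitatory neurons (log2 fold change 1.12, SE 0.33), and Fibcd1 (0.38, SE 0.17), and 1 lower, Wfs1 (−0.13, SE 0.06). Of 7 interpeduncular genes tested 2 were higher, Chrna2 and the transcription factor Nkx6-1 (0.77, SE 0.30), and of 6 motor and cholinergic genes 2 were, Ecel1 and Calca. None of the 6 dopamine receptor and breakdown, 10 neurotrophin, 6 ependymal, 5 red nucleus or 5 blood genes tested passed an unadjusted p of 0.05. Without FTL_371 3 neurotrophin and plasticity genes were higher, Bdnf (0.32) and Ngfr (0.38) among them, and 1 lower, Gfra1 (−0.34), beside 4.41% and 4.06% of all genes. In that fit Clic6 of the ependymal genes was higher (0.48), Neurod2 (1.82) and Camk2a (0.37) joined the hippocampus and cortex genes that were higher, and Drd2 (−0.35) and the nicotinic subunits Chrna3 (−0.27) and Chrna4 (−0.42) were lower. In both sexes 85 genes had an unadjusted p under 0.05, where 5.92% of genes tested in males and 9.02% in females did. Of the 85, 68 had the same sign in males and females, in tests that share no library. Whether 85 is more than unrelated tests would share was not tested.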
